A study of Mus musculus with 18 samples.

Results

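A set of cAMP signalling genes is described here, 10 of the 15194 genes with a read count in the deposited tables. They are the adenylate cyclase genes Adcy1, Adcy3, Adcy5, Adcy6, Adcy7 and Adcy9, the phosphodiesterase genes Pde3b and Pde4d, and Prkar2b and Prkaca, which encode a regulatory and a catalytic subunit of protein kinase A. They were chosen by name, and the family was picked because Adcy1 is almost lost in both knockout lines. The fall of Adcy1 against control cells is therefore given as a description, with no test. The RNA was total RNA of 3T3-L1, a mouse line of fibroblast type that turns into fat cells in culture. Control cells (CTL), MLKL-/- cells and RIPK3-/- cells were each sequenced at J0 (undifferentiated, untreated) and at J7 (differentiated). There are 6 groups of 3 libraries. Ripk3 encodes a kinase and Mlkl the pseudokinase it activates in necroptosis, a form of lytic cell death. The labels do not say how the knockouts were made, whether a knockout line is 1 clone, which differentiation agents were used, or whether libraries of 1 group came from separate cultures. The p-values therefore measure only the spread between these libraries, which may be technical. Groups follow the sample titles. In the 6 differentiated knockout samples the genotype label names the other knockout, so MLKL-/- and RIPK3-/- at J7 are title names.

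As background, adenylate cyclases are membrane enzymes that make cAMP from ATP when receptors signal through stimulatory G proteins. The members of the family differ in control: the calcium sensor calmodulin activates the enzyme encoded by Adcy1, while calcium inhibits the enzymes of Adcy5 and Adcy6. cAMP binds the regulatory subunits of protein kinase A and frees the catalytic subunits, and phosphodiesterases break cAMP down. In fat cells this pathway carries the signal of catecholamines to the breakdown of stored fat, and insulin counters it through the phosphodiesterase encoded by Pde3b. In 3T3-L1 cultures a rise of cAMP is also part of the usual start of differentiation.

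Library totals were 20.2 to 36.9 M reads. The deposited tables are limited to genes whose adjusted p, by the authors, was under 0.05. A gene has no count in a group where no table lists it. Listed genes held 89.96 to 98.4% of the reads in CTL and RIPK3 libraries, 29.3 to 30.4% in J0_MLKL and 53.5 to 54.5% in J7_MLKL. For this reason Adcy5 and Prkaca have no count in J0_MLKL, Adcy6 none in either MLKL group, Adcy9 none in J7_CTL and J7_MLKL, and Pde4d none in J7_MLKL. All 10 adipocyte markers on the list used here had counts in every group. Their summed level, in reads per M reads of the library total (CPM), was 21920 to 23020 in J7_CTL, 24240 to 26220 in J7_RIPK3 and 3630 to 5207 in J7_MLKL, against 290.5 to 507 in the J0 groups, where Lep was at 0 reads in each group and Adipoq in J0_CTL and J0_MLKL. Mlkl and Ripk3 were read in all 18 libraries. Mlkl was at 8.05 ± 1.45 CPM (SD, n = 3) in J0_MLKL against 18.9 ± 0.793 in J0_CTL. Ripk3 was at 15.9 ± 1.31 CPM in J0_RIPK3 against 18.2 ± 1.40 in J0_CTL, a small difference. In J7_RIPK3 it was at 10.9 ± 0.750 CPM against 18.3 ± 0.842 in J7_CTL. At J7, where title and genotype label differ, Mlkl was at 15.1 ± 1.24 CPM in J7_MLKL, 29.1 ± 2.94 in J7_RIPK3 and 26.3 ± 1.102 in J7_CTL, lower in the group titled MLKL-/-. Ripk3 did not separate the knockouts, at 9.23 ± 2.40 CPM in J7_MLKL and 7.45 ± 1.87 in J0_MLKL, where title and label match. Libraries J0_MLKL 2 and J7_MLKL 3 stood apart from their groups, with a chi-square per degree of freedom of 44.1 to 199 against their fellow libraries where other pairs had 2.65 to 5.56. Tested MLKL-/- differences are given with and without them.

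Per gene length, the cyclase transcripts were far from equal. The authors' FPKM scale reads by gene length and library total and serve here for comparing genes. Adcy6 had 34.2 ± 1.06 FPKM (SD, n = 3) in J0_CTL, 40.4 ± 0.582 in J7_CTL, 32.5 ± 0.616 in J0_RIPK3 and 40.5 ± 0.179 in J7_RIPK3. In these 4 groups Adcy6 made up 92.9 to 95.2% of the summed FPKM of Adcy1, Adcy3, Adcy5, Adcy6 and Adcy7. Adcy9, which has no count in J7_CTL, is not in this sum, and with it the shares would be smaller. It lay at 2.40 ± 1.12 to 5.25 ± 0.189 FPKM where it was counted. Adcy3 lay between 0.628 and 2.36 FPKM in group means, Adcy5 between 0.0673 and 1.20, and Adcy7 between 0.153 and 1.39. Adcy1 was a minor transcript already in CTL, at 0.465 ± 0.0418 FPKM in J0_CTL and 0.602 ± 0.0597 in J7_CTL, or 1.27% and 1.41% of that sum. Downstream, Prkaca was the most abundant of the 10 genes in each group with a Prkaca count, at 66.1 to 197 FPKM. Prkar2b lay at 28.8 to 126 FPKM, and Pde3b, at 2.06 to 18.9, was above Pde4d, at 0.935 to 2.55, in each group that counted both.

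**Figure D1:**
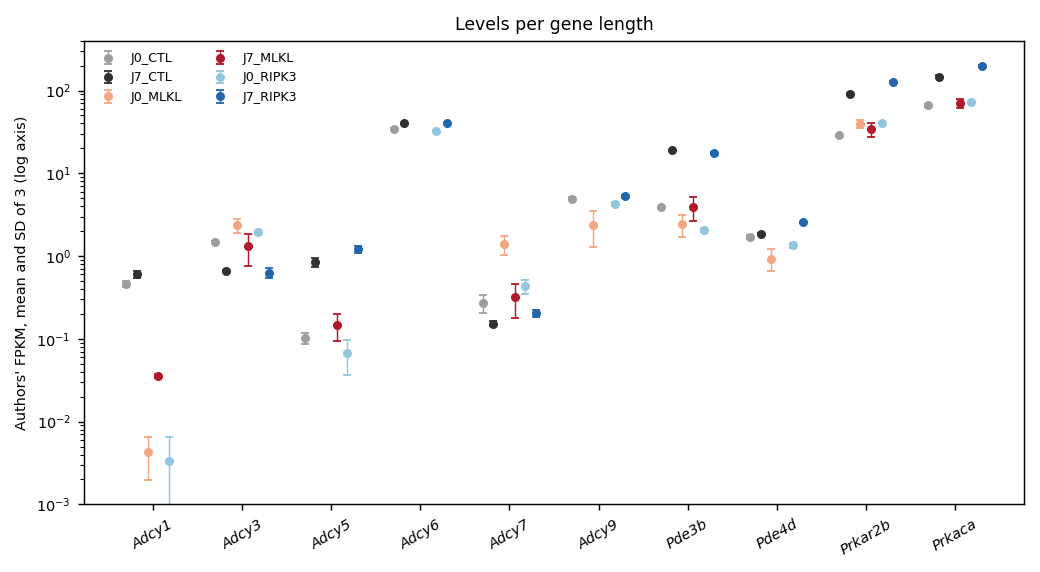
Authors' FPKM of the 10 genes on a log axis, as the mean and SD of 3 libraries in each of the 6 groups. Groups without a listed count and the J7_RIPK3 group of Adcy1, which had 0 reads, have no point, and Adcy6 is the highest cyclase wherever it was counted.

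Promoter sequence is shown for Adcy1, because its loss defines the gene set, and for Adcy5, Prkar2b and Prkaca, which rose together with differentiation in CTL and RIPK3-/- cells. Each is the 250 bases before a start that RefSeq gives (for Prkar2b and Prkaca, the one nearer to the start of the deposited gene) in GRCm38.p6, the assembly also called mm10, which is the build of the deposited coordinates. Each is written 5′ to 3′ on the strand of its gene, and capitals mark GGGCGG or its complement CCGCCC, the box read by Sp1 factors. The Adcy1 window is chr11:7063183-7063432 on the + strand, that of Adcy5 is chr16:35154614-35154863 on the + strand, that of Prkar2b is chr12:32061278-32061527 on the - strand and that of Prkaca is chr8:83972728-83972977 on the + strand.

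Adcy1: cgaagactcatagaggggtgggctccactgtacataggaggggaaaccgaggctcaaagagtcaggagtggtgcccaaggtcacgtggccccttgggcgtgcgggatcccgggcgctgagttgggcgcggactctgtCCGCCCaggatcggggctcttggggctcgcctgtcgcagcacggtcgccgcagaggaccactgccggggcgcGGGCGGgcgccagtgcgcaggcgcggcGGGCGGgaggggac

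Adcy5: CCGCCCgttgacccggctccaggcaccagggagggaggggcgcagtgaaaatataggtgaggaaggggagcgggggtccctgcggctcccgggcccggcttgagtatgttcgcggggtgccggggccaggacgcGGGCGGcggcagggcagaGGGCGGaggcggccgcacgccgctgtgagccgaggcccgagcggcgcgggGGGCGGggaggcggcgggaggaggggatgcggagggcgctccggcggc

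Prkar2b: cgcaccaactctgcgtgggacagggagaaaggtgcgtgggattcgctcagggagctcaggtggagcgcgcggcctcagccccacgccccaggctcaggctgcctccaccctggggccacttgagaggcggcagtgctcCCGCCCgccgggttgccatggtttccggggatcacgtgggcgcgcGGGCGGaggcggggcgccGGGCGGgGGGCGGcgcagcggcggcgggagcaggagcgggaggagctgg

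Prkaca: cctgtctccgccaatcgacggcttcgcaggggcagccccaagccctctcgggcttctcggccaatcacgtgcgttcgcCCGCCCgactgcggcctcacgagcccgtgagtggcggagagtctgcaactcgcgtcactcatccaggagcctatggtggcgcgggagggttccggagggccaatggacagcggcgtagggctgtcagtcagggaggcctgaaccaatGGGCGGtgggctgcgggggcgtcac

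These 4 windows were rich in GC and CpG. The Adcy1 window held 71.2% GC, 26 CpG and 3 Sp1 boxes, and that of Adcy5 held 78.0% GC, 32 CpG and 4 boxes. Prkar2b had 75.6% GC with 28 CpG and 4 boxes, and Prkaca 68.8% GC with 25 CpG and 2 boxes. Over the 32817 promoters of the same table the medians were 52.4% GC and 6 CpG, and 32.7% held at least 1 GGGCGG on either strand. The full cAMP response element TGACGTCA occurred in none of the 4 windows and in 1.55% of all promoters. Its core TGACG, which is part of the full element, occurred 2 times in the Prkaca window, in none of the other 3, and in 17.7% of all promoters. TTGCGCAA, a C/EBP site, was in 0.165% of all promoters and in none of these 4 windows. A match is a description of letters and not a bound site, and 8 of the 10 genes had a promoter in the table.

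Adcy1 (ENSMUSG00000020431) spans 7063489 to 7178506 on the + strand of chromosome 11 (mm10), and no other listed gene overlaps it. It had 189, 187 and 139 reads in the 3 J0_CTL libraries and 197, 191 and 180 in J7_CTL. The MLKL-/- libraries had 2, 1 and 1 reads at J0 and 12, 10 and 11 at J7, and the RIPK3-/- libraries 0, 1 and 3 at J0 and 0, 0 and 0 at J7. Every CTL library thus lay above every knockout library, and among the knockouts the 3 J7_MLKL libraries lay above all the others. As levels, Adcy1 stood at 5.82 ± 0.523 CPM (SD, n = 3) in J0_CTL and 7.54 ± 0.748 in J7_CTL. It was at 0.447 ± 0.0266 CPM in J7_MLKL, 0.0534 ± 0.0285 in J0_MLKL and 0.0416 ± 0.0407 in J0_RIPK3. The order of groups was J7_CTL, J0_CTL, J7_MLKL, J0_MLKL, J0_RIPK3 and J7_RIPK3, and neighbours overlapped only among the last 3. Among the groups with a count, Adcy1 was the only 1 of the 10 genes with a library at 0 reads. Adcy5 was the next lowest, with 7, 10 and 26 reads in J0_RIPK3.

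The loss of Adcy1 was not equal in the 4 knockout groups. From pooled reads over pooled totals, Adcy1 was 112-fold lower in J0_MLKL than in J0_CTL (exact 95% counting interval 43.6 to 414) and 124-fold lower in J0_RIPK3 (48.1 to 456). The log2 value of the latter went from -6.85 to -7.87 without J0_RIPK3 3, the library with 3 of its 4 reads. In J7_MLKL it was 16.9-fold lower than in J7_CTL (interval 11.9 to 24.7). In J7_RIPK3, with 0 of 70.7 M reads, it was at least 177-fold lower, where 3 reads in the whole group were taken as the floor. Intervals and floors cover counting error only. These 4 values share their control libraries in pairs and chose the gene set, so no test is given.

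Between the knockout groups the Adcy1 reads are again a description, since these low values were among those that chose the set, and the gene passes the filter on low counts only through J7_MLKL. From J0_MLKL to J7_MLKL the pooled level was 8.63-fold higher (counting interval 3.07 to 33.5), on 4 and 33 reads. J7_MLKL was at least 10.5-fold above J7_RIPK3, with the same floor. The CTL libraries allow a test of differentiation, which the choice of the set did not use. Adcy1 rose there by a log2 fold change of 0.33 ± 0.12 (edgeR adjusted p 0.0121). Without J7_CTL 1, the highest library, that value was 0.27 with an adjusted p of 0.0529, the highest of its 12 alternatives, of which the lowest was 0.00455. In RIPK3-/- cells Adcy1 had 4 reads at J0 and 0 at J7.

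Over the 18 libraries, 5 of 2493 protein-coding genes had the pattern most like Adcy1, by Pearson r of log2(CPM + 0.5). They were Trpc5os (r 0.99), the cytochrome P450 gene Cyp2c55 (0.934), the RNA sensor gene Ifih1 (0.904), Vstm2a (0.901) and the ferroxidase gene Heph (0.899). Trpc5os had 2.81 CPM in J0_CTL and 3.09 in J7_CTL, and 0.0117 to 0.138 in the 4 knockout groups. Cyp2c55 fell less far, from 50.4 and 47.8 CPM in J0_CTL and J7_CTL to between 13.8 and 23.5 in the knockout groups. These correlations describe 18 libraries that share the same contrast of 6 CTL and 12 knockout libraries, and the Adcy1 pattern they are matched to chose the gene set. Only genes with a count in every library and a mean of at least 1 CPM were compared. Genes not listed in an MLKL group could thus not appear, and Trpc5os reaches that mean only through its CTL levels.

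**Figure D2:**
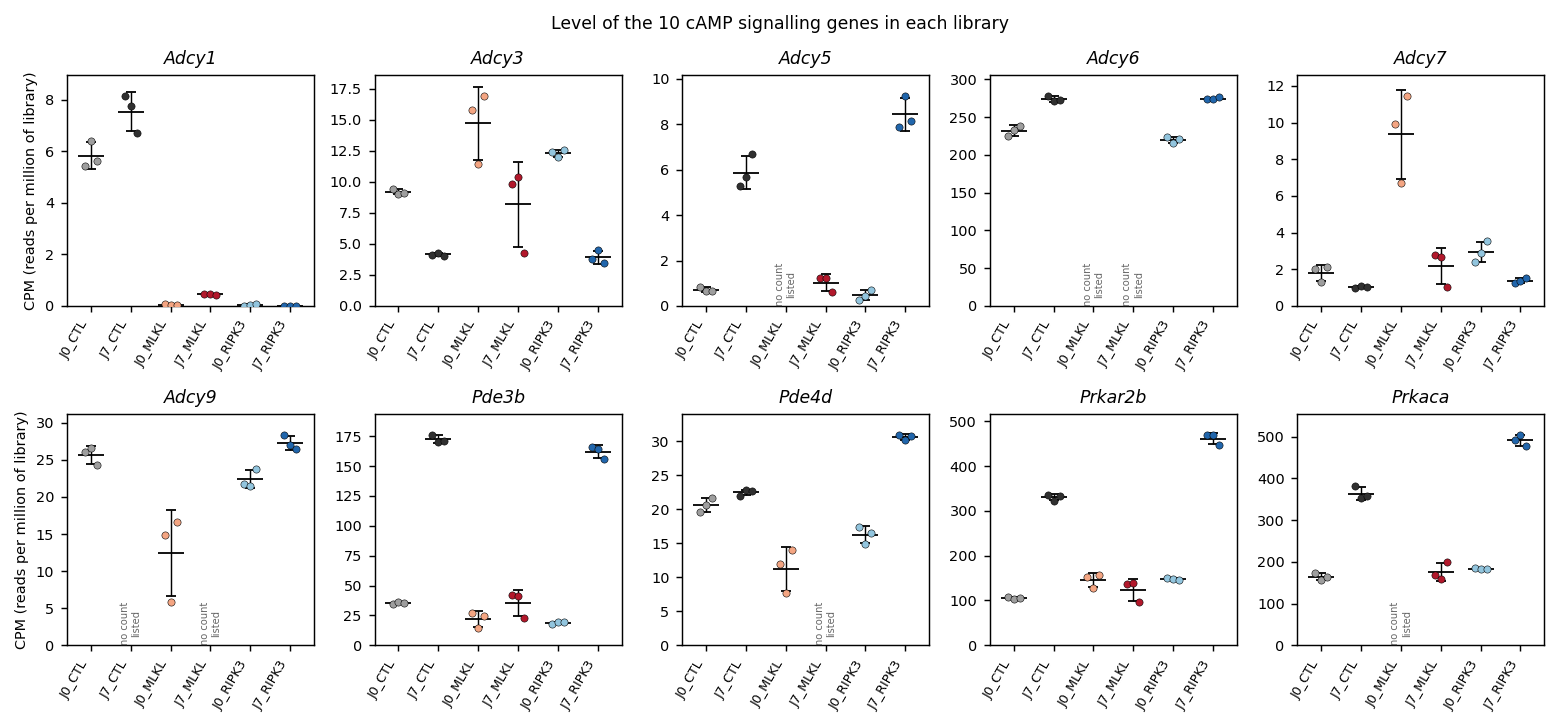
CPM of each of the 10 genes in every library, with the mean (long tick) and SD of 3 libraries per group, on linear axes that start at 0. Adcy1 lies near 0 in the 4 knockout groups, while Pde3b, Prkar2b and Prkaca are high in J7_CTL and J7_RIPK3 and not in J7_MLKL.

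The comparison of J7_CTL with J0_CTL asks how differentiation changed the pathway in control cells. Adcy5, Pde3b, Prkar2b and Prkaca rose strongly, Adcy6 and Adcy1 rose slightly, and Adcy3 and Adcy7 fell. Of the 9 members tested, 6 were higher, 2 lower and 1, Pde4d, not called, and Adcy9 had no count in J7_CTL. Across all 12055 genes tested 95.9% were called, 48.2% higher and 47.6% lower, so a count of 8 of 9 is close to that background and says nothing particular of these genes. Calls are at an adjusted p under 0.05 (edgeR, Benjamini-Hochberg over all genes tested).

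Among the cyclases in CTL, the changes went in opposite directions. Adcy5 (ENSMUSG00000022840, chromosome 16, 35154877 to 35305737, + strand) encodes a cyclase best known from striatum and heart. It was at 0.834, 0.652 and 0.646 CPM in J0_CTL and 5.26, 5.68 and 6.68 in J7_CTL, so the groups were far apart. Its log2 fold change was 2.98 ± 0.20 (SE), with an adjusted p of 4.75e-13. Adcy6 (ENSMUSG00000022994, chromosome 15, 98589973 to 98610076, - strand), its closest relative in the family, rose from 232 ± 7.18 to 274 ± 3.94 CPM (log2 0.19 ± 0.03, adjusted p 6.4e-06). Adcy3 (ENSMUSG00000020654, chromosome 12, 4133103 to 4213525, + strand), known for its part in olfactory and ciliary signalling, fell from 9.20 ± 0.199 to 4.16 ± 0.0993 CPM (-1.19 ± 0.11, adjusted p 5e-10). Its 3′ part overlaps Cenpo on the other strand, and reads shared by both cannot be told apart, since strand use in counting is not given. Adcy7 (ENSMUSG00000031659, chromosome 8, 88272403 to 88329962, + strand), best known from blood cells, was at 2.04, 1.30 and 2.10 CPM in J0_CTL and 0.953, 1.096 and 1.04 in J7_CTL. The groups did not overlap, and it fell by 0.86 ± 0.25 on the log2 scale (adjusted p 0.0024). In bulk RNA, fewer cells of a type and less RNA per cell cannot be told apart.

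Downstream of cAMP, Pde3b, Prkar2b and Prkaca rose in CTL. Pde3b (ENSMUSG00000030671, chromosome 7, 114415281 to 114539251, + strand), the phosphodiesterase that insulin activates, was at 34.2, 36.1 and 35.5 CPM in J0_CTL and at 176, 170 and 171 in J7_CTL. Its log2 fold change was 2.25 ± 0.04 (adjusted p 2.66e-25), a 4.90-fold rise of pooled reads. Prkar2b (ENSMUSG00000002997, chromosome 12, 31958476 to 32061296, - strand) encodes RII beta, the regulatory subunit that prevails in adipose tissue. It went from 107, 104 and 105 CPM to 336, 323 and 332 (1.60 ± 0.03, adjusted p 1.16e-23). Prkaca (ENSMUSG00000005469, chromosome 8, 83972993 to 83996443, + strand) went from 174, 157 and 162.5 CPM to 381, 354 and 357 (1.1 ± 0.04, adjusted p 6.66e-19). For each of these 3 genes the J7 libraries lay well above the J0 libraries. Pde4d (ENSMUSG00000021699, chromosome 13, 108449948 to 109953461, + strand), a phosphodiesterase anchored near beta-adrenergic receptors, had 20.6 ± 1.06 and 22.5 ± 0.411 CPM, a log2 difference of 0.08 ± 0.07 (adjusted p 0.22). Pde4d overlaps Rps3a3 on the same strand.

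**Figure D3:**
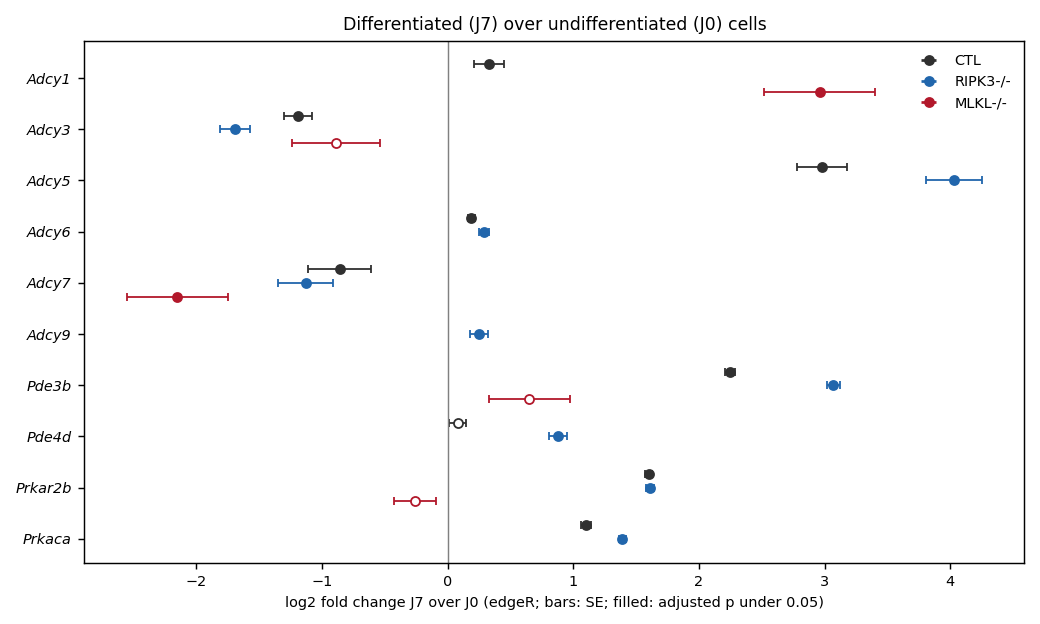
Log2 fold change of J7 over J0 for each gene in CTL, RIPK3-/- and MLKL-/- cells, with SE bars, filled where the edgeR adjusted p is under 0.05. Adcy5, Pde3b, Prkar2b and Prkaca lie to the right in CTL and RIPK3-/-, while Prkar2b lies at -0.26 in MLKL-/-. The Adcy1 point in MLKL-/- is a description on 4 and 33 reads. Its SE bar and filling come from a fit that is not used as a result.

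In RIPK3-/- cells the same comparison gave changes in 9 of the 9 members tested, 7 higher and 2 lower, beside 97.8% of all 11798 genes (49.3% higher, 48.5% lower). Adcy5 went from 0.276, 0.436 and 0.704 CPM in J0_RIPK3 to 7.88, 9.26 and 8.16 in J7_RIPK3. The J0 libraries rest on 7, 10 and 26 reads and the groups lay far apart, with a log2 fold change of 4.03 ± 0.22 (SE, adjusted p 1.12e-13). Pde3b went from 17.8, 19.1 and 19.4 CPM to 166, 164 and 156, a log2 fold change of 3.07 ± 0.05 (adjusted p 1.51e-23). Pde4d, which was not called in CTL, rose here from 16.2 ± 1.27 to 30.6 ± 0.397 CPM (0.88 ± 0.07, adjusted p 1.26e-10). Prkar2b rose by 1.61 ± 0.03 and Prkaca by 1.39 ± 0.03 on the log2 scale. Adcy9 (ENSMUSG00000005580, chromosome 16, 4287529 to 4420498, - strand), a widely expressed cyclase that forskolin activates poorly, rose by 0.25 ± 0.07 (adjusted p 0.0013). Adcy6 rose by 0.29 ± 0.04, while Adcy3 fell by 1.69 ± 0.12 and Adcy7 by 1.13 ± 0.22 on the log2 scale.

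The size of the differentiation change was then compared between RIPK3-/- and CTL cells by the interaction term in edgeR. Of 8 members tested besides Adcy1, 5 changed more upward in RIPK3-/- and 1 more downward, beside 39.0% called of all 11027 genes (18.4% higher, 20.6% lower). Pde3b differed by 0.85 ± 0.06 on the log2 scale (adjusted p 3.11e-12), Pde4d by 0.82 ± 0.10 (6.28e-08) and Prkaca by 0.31 ± 0.05 (1.22e-05). For Pde3b the J7 levels were close in both lines, at 162 ± 5.25 and 172 ± 3.23 CPM, and the J0 levels were not, at 18.8 ± 0.864 in J0_RIPK3 and 35.2 ± 0.982 in J0_CTL. Adcy5 differed by 1.07 ± 0.35 (adjusted p 0.0149, range over 18 alternatives 0.00249 to 0.076), and lost the call without J0_RIPK3 1 (0.82) or J0_CTL 1 (0.92). Adcy3 differed by -0.48 ± 0.16 (0.0165, range 0.00693 to 0.0575), without the call when J7_RIPK3 3 was left out (-0.41). Adcy6 differed by 0.12 ± 0.05 (0.045, range 0.00232 to 0.2), and lost the call in 7 of 18 alternatives. The difference was -0.25 ± 0.34 for Adcy7 (adjusted p 0.607) and 0.03 ± 0.04 for Prkar2b (0.647), so Prkar2b changed by 1.60 and 1.61 in CTL and RIPK3-/- cells.

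In MLKL-/- cells Adcy7 fell with differentiation, and Prkar2b, Pde3b and Adcy3 were not called. Besides Adcy1 this was 1 of 4 members with counts in both groups, beside 66.7% called of 3075 genes (35.8% higher, 30.9% lower). Adcy7 was at 9.92, 6.69 and 11.5 CPM in J0_MLKL and 2.78, 2.67 and 1.06 in J7_MLKL. The J0 libraries were the highest of all 18, and the fall of 2.15 ± 0.40 on the log2 scale passed the test (adjusted p 0.00361, and -2.03 without both libraries that stood apart). Prkar2b stayed at 152, 128 and 156 CPM in J0_MLKL and 138, 139 and 95.9 in J7_MLKL. These groups overlapped, with a log2 difference of -0.26 ± 0.17 (adjusted p 0.209). Pde3b was at 26.95, 14.4 and 24.65 CPM at J0 and 42.2, 41.6 and 22.7 at J7, where the lowest values belong to J0_MLKL 2 and J7_MLKL 3, with a log2 difference of 0.65 ± 0.32 (adjusted p 0.117). Adcy3 differed by -0.89 ± 0.35 (adjusted p 0.0584). Without both libraries these 3 were called as well, Pde3b at 0.64 (adjusted p 1.7e-06), Prkar2b at -0.22 (0.000775) and Adcy3 at -0.76 (1.98e-05). Over the alternatives their adjusted p reached 0.285, 0.412 and 0.154.

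Against CTL, the interaction term found a lower change in MLKL-/- cells for Pde3b and Prkar2b. The changes differed by -1.64 ± 0.34 on the log2 scale for Pde3b (edgeR adjusted p 0.00127) and by -1.91 ± 0.18 for Prkar2b (2.79e-06), and these were -1.63 and -1.85 without both libraries. Adcy7 differed by -1.34 ± 0.50 (0.0331, range over 19 alternatives 0.00103 to 0.0751), lost the call in 6 of the 19, and was -1.20 without both libraries. Adcy3 differed by 0.26 ± 0.38 (0.574, range 0.0181 to 0.927). It was called without both libraries (0.41, 0.0181) and without J7_MLKL 3 alone (0.57, 0.0261), and its sign turned with DESeq2 size factors (-0.06). In this contrast 3 of 4 members tested besides Adcy1 were called, all lower, beside 65.3% of 3033 genes (26.3% lower). The median over all genes was 0.305 here and -0.009 with DESeq2 size factors, so these values are to be read relative to that shift. The summed adipocyte markers stood at 3630 to 5207 CPM in J7_MLKL and 21920 to 23020 in J7_CTL. Summed preadipocyte or fibroblast markers stood at 8033 to 9797 CPM in J7_MLKL (7 of 8 listed) and 2839 to 2912 in J7_CTL (8 of 8, with Dlk1 at 0). Macrophage markers stood at 33.6 to 58.0 CPM (2 of 6 listed, nearly all Cd14) and 13.0 to 16.4 (3 of 6). Their part in the differences of Pde3b and Prkar2b was not tested.

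Before differentiation, Adcy7, Adcy3 and Prkar2b were higher in each knockout than in CTL. All values against J0_CTL below share its 3 libraries, so the 2 lines are only set side by side. Adcy7 stood at 1.30 to 2.10 CPM in J0_CTL. It stood at 6.69 to 11.5 CPM in J0_MLKL and 2.40 to 3.52 in J0_RIPK3. No library overlapped, and the log2 difference was 2.39 ± 0.26 (SE) in J0_MLKL (edgeR adjusted p 0.00013, and 2.60 without J0_MLKL 2) and 0.69 ± 0.20 in J0_RIPK3 (0.00572). The latter lost the call without J0_RIPK3 3 (0.52, adjusted p 0.0696, lowest of 12 alternatives 0.00312). Adcy3 was higher too, by 0.71 ± 0.15 in J0_MLKL (0.00353, and 0.87 without J0_MLKL 2) and 0.40 ± 0.09 in J0_RIPK3 (0.000393). Prkar2b was higher by 0.50 ± 0.09 (0.00127, and 0.59 without J0_MLKL 2) and 0.47 ± 0.03 (1.49e-11), with J0_CTL at 104 to 107 CPM, J0_MLKL at 128 to 156 and J0_RIPK3 at 147 to 149. Prkaca was higher in J0_RIPK3 by 0.13 ± 0.03 (0.00183) and had no count in J0_MLKL.

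The phosphodiesterases and Adcy9 were lower in the undifferentiated knockouts. Pde3b was at 34.2 to 36.1 CPM in J0_CTL, 14.4 to 26.95 in J0_MLKL and 17.8 to 19.4 in J0_RIPK3. It was lower by a log2 difference of -0.93 ± 0.06 in J0_RIPK3 (adjusted p 6.83e-12) and -0.65 ± 0.21 in J0_MLKL (0.0184). The MLKL-/- value was -0.41 without J0_MLKL 2, and it lost the call without J0_CTL 2 (-0.64, adjusted p 0.0504) or J0_CTL 3 (-0.65, 0.0502), with 5.86e-06 as the lowest over 12 alternatives. Pde4d was lower by -0.85 ± 0.20 in J0_MLKL (0.00477, and -0.62 without J0_MLKL 2) and -0.36 ± 0.07 in J0_RIPK3 (0.000268). Adcy9 was at 26.1, 26.6 and 24.3 CPM in the J0_CTL libraries. The J0_MLKL libraries had 14.8, 5.81 and 16.7 CPM, and the J0_RIPK3 libraries 21.8, 21.5 and 23.8. J0_MLKL 2 was the lowest of these libraries, and the log2 difference of -1.02 ± 0.32 (0.0178) became -0.67 without it, against -0.22 ± 0.06 in J0_RIPK3 (0.00588). In J0_RIPK3, Adcy6 was lower by -0.10 ± 0.03 (0.0133), which lost the call with total reads only (0.0518), without J0_RIPK3 2 (0.0571) or without J0_CTL 3 (0.0784), with a lowest value of 0.00189 over its 12 alternatives. Adcy5 differed by -0.54 ± 0.36 (0.203). Besides Adcy1, 6 of 6 members tested were called in J0_MLKL, 3 higher and 3 lower, beside 83.6% of 3824 genes (40.4% higher, 43.2% lower). In J0_RIPK3 it was 8 of 9, 4 higher and 4 lower, beside 55.8% of 11044 genes (28.3% higher, 27.4% lower). Since only genes called by the authors are listed, the choice of genes bears on these counts: 6 of those 6 members, and 7 of those 9, stand in the authors' deposited table of the same comparison.

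**Figure D4:**
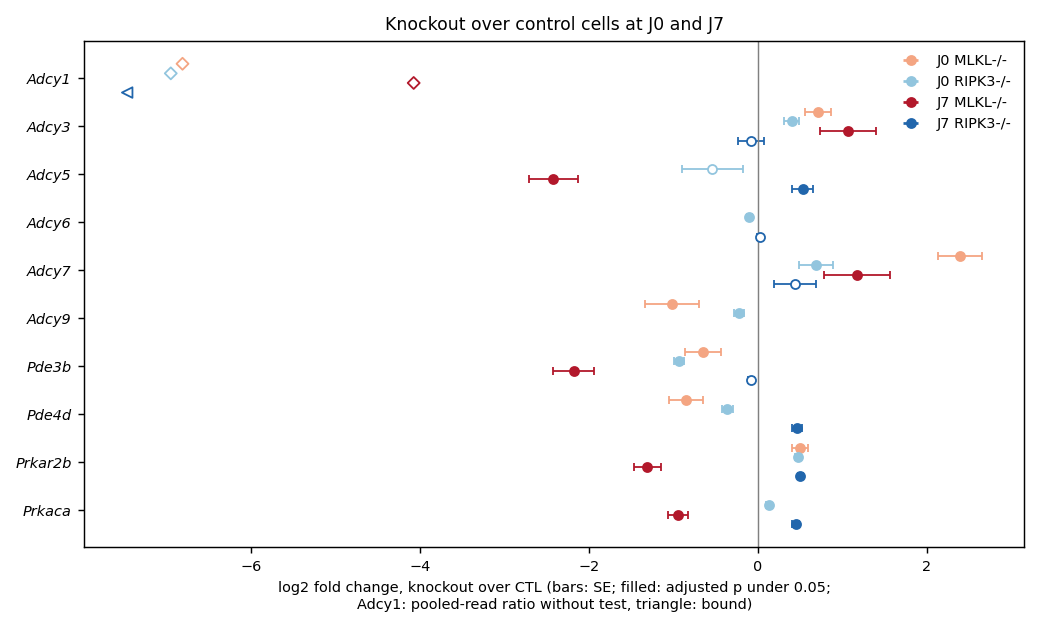
Log2 fold change of each knockout over CTL at J0 and J7, with SE bars, filled where the edgeR adjusted p is under 0.05. For Adcy1 open diamonds are ratios of pooled reads with no test and the triangle is the bound of at least 177-fold, and J7 MLKL-/- lies furthest left for Adcy5, Pde3b, Prkar2b and Prkaca.

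After differentiation, Adcy5, Pde3b, Prkar2b and Prkaca were lower in J7_MLKL than in J7_CTL, while Adcy5, Pde4d, Prkar2b and Prkaca were higher in J7_RIPK3. Adcy5 was at 1.24, 1.24 and 0.605 CPM in J7_MLKL, 5.26 to 6.68 in J7_CTL and 7.88 to 9.26 in J7_RIPK3. The groups did not overlap, with log2 differences from J7_CTL of -2.42 ± 0.29 (SE, edgeR adjusted p 0.000372) in J7_MLKL and 0.53 ± 0.12 (0.00083) in J7_RIPK3. Prkar2b was at 95.9 to 139 CPM in J7_MLKL, 323 to 336 in J7_CTL and 446 to 470 in J7_RIPK3, with log2 differences of -1.31 ± 0.16 (0.000357) and 0.50 ± 0.03 (2.57e-11). Prkaca was at 169, 159 and 199 CPM in J7_MLKL and 491, 505 and 478 in J7_RIPK3, with differences of -0.95 ± 0.12 (0.000415) and 0.45 ± 0.04 (4.76e-10). In J7_MLKL the Prkaca level thus lay in the range of J0_CTL and J0_RIPK3, at 157 to 184 CPM, except for J7_MLKL 3 at 199. Prkaca has no count in J0_MLKL, so its change with differentiation in MLKL-/- cells is not known. Pde3b was lower in J7_MLKL by -2.18 ± 0.24 (0.000241), and in J7_RIPK3 its difference was -0.08 ± 0.04 (0.0705). Without J7_MLKL 3 these MLKL-/- values were -2.17 for Adcy5, -1.18 for Prkar2b, -1.08 for Prkaca and -1.97 for Pde3b. Pde4d was higher in J7_RIPK3 by 0.46 ± 0.06 (1.02e-06).

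Adcy3 and Adcy7 were again higher in MLKL-/- cells, with less certainty. Adcy3 was at 9.85, 10.4 and 4.27 CPM in J7_MLKL and 4.07 to 4.26 in J7_CTL, a log2 difference of 1.07 ± 0.33 (adjusted p 0.0184). Adcy7 was at 2.78, 2.67 and 1.06 CPM against 0.953 to 1.096 in J7_CTL, where the lowest library overlapped, a difference of 1.17 ± 0.39 (0.0241). For both genes J7_MLKL 3 was close to CTL, and without it the values were 1.35 (7.68e-09) and 1.47 (1.14e-05). Each lost the call in 5 of its alternatives, without J7_MLKL 1, J7_MLKL 2 or any 1 of the J7_CTL libraries, where the adjusted p reached 0.0592 for Adcy3 and 0.0802 for Adcy7. In J7_RIPK3 the differences were -0.08 ± 0.15 for Adcy3 (0.68), 0.44 ± 0.25 for Adcy7 (0.147) and 0.02 ± 0.03 for Adcy6 (0.673). Besides Adcy1, 6 of 6 members tested were called in J7_MLKL, 2 higher and 4 lower, beside 94.9% of 7263 genes (48.5% higher, 46.4% lower). In J7_RIPK3 it was 4 of 8, all higher, beside 59.1% of 11170 genes (29.6% higher, 29.5% lower). In J7_MLKL the median over all genes was 0.174 and became 0.071 with total reads only.

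In the direct comparison of the knockouts at J0, Adcy7 was higher in J0_MLKL than in J0_RIPK3 by 1.69 ± 0.23 on the log2 scale (edgeR adjusted p 0.000482, and 1.88 without J0_MLKL 2) and was the only 1 of 6 members called, beside 66.5% of 3455 genes (33.1% higher, 33.4% lower). Adcy9 differed by -0.81 ± 0.32 (0.0512) and Pde4d by -0.50 ± 0.20 (0.0542), and both were called with the replicate block, at -0.91 and -0.52. Without J0_MLKL 2 all 6 were called, among them Adcy9 at -0.47, Pde4d at -0.28, Adcy3 at 0.45 and Pde3b at 0.49, and Prkar2b at 0.10. At J7, besides Adcy1, 5 of 6 members were called, 1 higher and 4 lower, beside 86.8% of 6591 genes (44.8% higher, 42.0% lower). J7_MLKL was lower than J7_RIPK3 for Adcy5 (-2.87 ± 0.28, adjusted p 0.000114), Pde3b (-2.02 ± 0.23, 0.000237), Prkar2b (-1.72 ± 0.15, 8.31e-05) and Prkaca (-1.31 ± 0.12, 0.000106). Without J7_MLKL 3 these were -2.61, -1.80, -1.59 and -1.43. It was higher for Adcy3 by 1.23 ± 0.34 (0.0123, and 1.52 without J7_MLKL 3), although that library overlapped J7_RIPK3. Adcy7 differed by 0.81 ± 0.38 (0.0811), and by 1.12 (0.000128) without J7_MLKL 3. The median over all genes was -0.031 and became -0.203 with total reads only.

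The other genes of the pathway were followed through 9 lists of 93 symbols, of which 75 had a count. With differentiation in CTL, 63 were tested, with 30 higher, 32 lower and 1 not called, and a median log2 fold change of -0.26 beside 0.03 for all genes tested. This is close to the share of calls over all genes, 95.9% with 48.2% higher and 47.6% lower. Receptors coupled to cyclases had 8 higher and 4 lower of 13. The beta-3 adrenergic receptor gene Adrb3 went from 0 reads to 19.96 ± 0.664 CPM (SD, n = 3), while the adenosine receptor gene Adora2b fell from 3.80 ± 0.220 to 0.198 ± 0.0806 and the prostaglandin receptor gene Ptger4 from 5.48 ± 0.403 to 0.876 ± 0.458. Genes listed as cAMP-responsive targets had 8 higher and 2 lower of 10, beside the same 48.2% and 47.6%. They were led by the droplet coat gene Plin1 (0.126 to 1393 CPM), which is also an adipocyte marker, and the gluconeogenic gene Pck1 (0 reads to 15.3 ± 3.65 CPM). Whether cAMP drove these rises was not tested. Other phosphodiesterases had 2 higher and 6 lower of 8. Rapgef3, which encodes the cAMP-activated exchange factor Epac1, fell from 22.7 ± 1.08 to 1.19 ± 0.126 CPM (log2 -4.30 ± 0.12, adjusted p 8.22e-21). In RIPK3-/- cells 63 were tested, with 32 higher and 31 lower, beside 97.8% called of all genes, and Rapgef3 fell there too, from 25.7 ± 1.74 to 1.60 ± 0.278 CPM.

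In J7_MLKL, Rapgef3 was at 23.7 ± 2.06 CPM, beside 30.7 ± 4.055 in J0_MLKL, 22.7 ± 1.08 in J0_CTL and 25.7 ± 1.74 in J0_RIPK3. Rapgef3 was 4.41 ± 0.16 higher in J7_MLKL than in J7_CTL on the log2 scale (edgeR adjusted p 5.94e-06, and 4.31 without J7_MLKL 3). Its differentiation change differed from CTL by 3.84 ± 0.18 (1.3e-08, and 3.87 without both libraries). Adora2b was likewise 3.67 ± 0.32 higher than in J7_CTL (9.96e-05, and 3.60 without J7_MLKL 3), while the niacin receptor gene Hcar2 was at 1.33 ± 0.486 against 40.8 ± 1.30 CPM (-4.82 ± 0.25, 1.6e-05, and -5.20 without J7_MLKL 3) and Pck1 at 0.698 ± 0.212 against 15.3 ± 3.65 (-4.35 ± 0.31, 4.37e-05, and -4.48 without it). Of 46 pathway genes tested against J7_CTL, 19 were higher, 23 lower and 4 not called, with a median of -0.36 beside 0.17 for all genes, of which 94.9% were called. Without J7_MLKL 3, 19 were higher and 27 lower of 47. With differentiation in MLKL-/- cells, 14 of 24 were higher, 5 lower and 5 not called (16 higher and 7 lower of 26 without both libraries that stood apart). The shares over all genes were 35.8% higher and 30.9% lower. On the target list of 13 symbols only 7 were tested, and 7 were higher (8 of 8 without both libraries). The adipocyte marker Plin1 led them, at 193 ± 41.2 CPM in J7_MLKL. In J7_RIPK3 against J7_CTL, 22 of 63 were higher, 18 lower and 23 not called, beside 59.1% called of all genes. There Pck1 was at 111 ± 2.71 CPM (2.86 ± 0.09, 2.78e-17) and Rgs2, a regulator of G protein signalling, at 495 ± 15.6 against 164 ± 4.65 (1.60 ± 0.04, 1.42e-19).

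Before differentiation, another cAMP phosphodiesterase gene, Pde7b, had the lowest log2 difference in each knockout among called pathway genes with a mean of at least 1 CPM. It was at 2.03 ± 0.0433 CPM in J0_CTL, 0.408 ± 0.180 in J0_RIPK3 (log2 -2.25 ± 0.28, edgeR adjusted p 4.71e-07) and 0.0507 ± 0.0172 in J0_MLKL (-5.15 ± 0.31, 8.49e-06, and -5.45 without J0_MLKL 2). The J0_MLKL level is near the floor of 3 reads in that group (0.0387 CPM), so the size of that fall is uncertain. Pde7b reached 1 CPM through J0_CTL only. The alpha-2A adrenergic receptor gene Adra2a, whose product inhibits cyclases, was higher in both, by 1.20 ± 0.23 in J0_MLKL (0.002, and 1.18 without J0_MLKL 2) and 1.46 ± 0.21 in J0_RIPK3 (3.33e-06). Over all lists, 8 of 24 pathway genes tested were higher, 11 lower and 5 not called in J0_MLKL (9 higher and 12 lower without J0_MLKL 2), and 16 of 52 higher, 13 lower and 23 not called in J0_RIPK3. Over all genes 83.6% and 55.8% were called. The medians were -0.05 and -0.00, beside -0.04 and -0.01 for all genes tested. Rgs2 was lower in J0_MLKL than in J0_RIPK3 by -1.40 ± 0.11 (2.91e-05, and -1.52 without J0_MLKL 2), at 15.8 ± 2.11 against 43.0 ± 0.841 CPM.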

How the data were processed

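RNA-seq libraries of 3T3-L1 cells, 3 for each of 6 groups, were analysed from 7 deposited comparison tables of 21 deposited files. The submitters' processing notes list HISAT2, DESeq2, mm10, featureCounts 1.5.0-p3 and FastQC 0.11.9, with strand use not given in the sources used here. Per the file headers, the deposited tables hold raw read counts, the authors' normalised count (a signal scaled by 1 size factor per library), FPKM, a log2 fold change, a p-value, an adjusted p-value, coordinates and, as other values, gene length. The largest adjusted p by the authors in any table was 0.049995, so the tables hold called genes only.

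Counts were joined by gene identifier, and 0 of 88950 counts given by more than 1 table differed. Library totals were recovered from count, FPKM and length. Each comparison was fitted on all genes with counts in its groups by edgeR 4.0.16 in R 4.3.3 (filterByExpr, TMM factors on recovered totals, quasi-likelihood F test), with Benjamini-Hochberg adjustment over all genes tested. Standard errors come from the F statistic. The scripts were tested on simulated data. TMM scaling assumes that most genes do not change, whereas in most comparisons most listed genes were called. Alternatives were total reads only, DESeq2 size factors, DESeq2 1.42.0, no filter, a mean of at least 50 counts, a replicate block and leaving out each library. Leaving out J0_MLKL 2 and J7_MLKL 3 together was chosen after seeing the data.

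Replicates of a group were compared by their counts, and every pair differed by more than sampling noise. The members and lists were chosen with earlier results of these data known. Named pathway genes are the 3 highest and 3 lowest called genes per comparison with a mean of at least 1 CPM in a group, and the 5 genes most like Adcy1. The authors' pathway and ontology tables were not used here. Promoters are from RefSeq (GRCm38.p6). Tests of Adcy1 between knockout groups were fitted but are not used, since its low values there chose the set.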

Additional observations from a re-analysis of the deposited data

Results flagged for a closer look

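The J7 minus J0 change of 9 member results differed between a knockout and CTL by the interaction test of edgeR. Besides Adcy1, 4 members were tested in MLKL-/- and 8 in RIPK3-/-. Over all genes tested, 65.3% were called in the MLKL-/- difference and 39.0% in the RIPK3-/- difference. Between MLKL-/- and CTL cells the difference on the log2 scale was -1.91 for Prkar2b (adjusted p 2.79e-06), -1.64 for Pde3b (0.00127) and -1.34 for Adcy7 (0.0331), and -1.85, -1.63 and -1.20 without J0_MLKL 2 and J7_MLKL 3. Prkar2b rose in CTL from 105 ± 1.45 to 330 ± 6.70 CPM (SD, n = 3) and stood at 145 ± 15.5 and 124 ± 24.6 CPM in J0_MLKL and J7_MLKL. Between RIPK3-/- and CTL cells it was 0.85 for Pde3b (3.11e-12), 0.82 for Pde4d (6.28e-08), 0.31 for Prkaca (1.22e-05), 1.07 for Adcy5 (0.0149), -0.48 for Adcy3 (0.0165) and 0.12 for Adcy6 (0.045). Some calls were lost under alternative settings. In the MLKL-/- difference this was Adcy7 in 6 of 19. In the RIPK3-/- difference it was Adcy6 in 7 of 18, Adcy5 in 2 of 18 and Adcy3 in 1 of 18. The value of Prkar2b in RIPK3-/- was 0.03 (adjusted p 0.647). No test compared the values of the 2 lines with each other, and they share the CTL libraries. In the edgeR fits no test for outlying single values was run in these groups of 3, beyond leaving out libraries.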

How the results depend on the processing

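The number of members called, Adcy1 included where it has a test, moved by more than 1.5 times in 2 comparisons. In J7_MLKL against J0_MLKL it was 2, 1 with a mean of at least 50 counts, 5 without both libraries that stood apart, and 2 to 4 without each library in turn. These counts include Adcy1, whose test there is not used as a result. With a mean of at least 50 counts Adcy1 fell to the filter, and the member called was Adcy7. In J0_MLKL against J0_RIPK3 the number was 1, 3 with total reads only, 3 with DESeq2, 3 with the replicate block, and 1 to 6 without each library in turn. For the 2 lines' differences from CTL in differentiation, it was 2 to 4 in MLKL-/- and 4 to 6 in RIPK3-/- without each library in turn. Of the 5 genes most like Adcy1, 3 stayed with no filter on low values. Signs turned only for values not called. Prkar2b in J0_MLKL against J0_RIPK3 was 0.02 and became -0.03 with total reads only, and -0.04 to 0.10 without a library in turn, with -0.02, -0.01 and -0.0 as further values. Adcy3 in the MLKL-/- difference was 0.26 and became -0.06 with DESeq2 size factors, -0.06 with DESeq2, and -0.07 (without J7_MLKL 1) to 0.57 (without J7_MLKL 3) without a library in turn. Prkar2b in the RIPK3-/- difference was 0.03 and became -0.01 with total reads only. The cause was not tested. Of the other single-gene values, 996 kept direction and side of the threshold, 33 lost the call, 22 gained it and 21 moved by more than the spread. Replicate numbers did not pair the libraries: over 27 pairs of equal number, r of the deviations ran from -0.701 to 0.489, and 10 correlated best with their own number. The replicate block changed the count of members called in no other comparison. With total reads only, higher calls went from 50.8 to 55.6% of calls in J0_RIPK3 against J0_CTL and from 47.2 to 39.7% in the RIPK3-/- difference. Depth limits Adcy1 in the knockouts, at 0 to 12 reads a library.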

Other observations

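Neighbours of Adcy1 were taken among protein-coding genes with counts in J0_CTL and J0_RIPK3. The nearest of these downstream, Igfbp3, which encodes a binding protein of insulin-like growth factors, lies 27.6 kb away and was lower than CTL in all 4 knockout groups. Igfbp3 was chosen after its values were seen. Its log2 differences (edgeR) were -3.19 in J0_MLKL (adjusted p 4.89e-06, and -3.04 without J0_MLKL 2), -0.86 in J0_RIPK3 (2.69e-07), -2.85 in J7_MLKL (2.14e-05, and -2.87 without J7_MLKL 3) and -2.72 in J7_RIPK3 (1.66e-18). Among the same genes the next upstream, Ramp3, 386 kb away, was tested only in J0_RIPK3 (-0.40, adjusted p 0.31). Tns3, 1253 kb downstream, was 3.14 higher in J7_MLKL (0.000544, and 3.47 without J7_MLKL 3), at 0.05 in J0_RIPK3 (0.164) and -0.14 in J7_RIPK3 (0.0311).

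Of the cyclases outside the 10 genes, Adcy10, the soluble cyclase, had 4, 5 and 6 reads in J0_CTL and 0.848 ± 0.193 CPM (SD, n = 3) in J7_CTL, beside 1.02 ± 0.287 in J7_RIPK3 and 0.123 ± 0.117 in J7_MLKL. Adcy4 lies next to Ripk3 on chromosome 14, from 55769057 to 55784095 (mm10), and had 12, 9 and 15 reads in J7_CTL and 25, 35 and 23 in J7_MLKL. Adcy2 and Adcy8 have no count here.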
